A study of Mus musculus with 15 samples.

Results

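The mitochondrial ribosomal protein genes were taken from the table by name and class: protein-coding genes whose symbol is Mrpl or Mrps followed by a number. Of 54532 genes in the table, 22046 of them protein-coding, 78 met this rule, 49 named Mrpl for the large subunit and 29 named Mrps for the small subunit. Of these, 77 passed the filter on low values and were tested among 15321 genes. The other member, Mrpl53, was listed at 0 in all 15 libraries; 88.0% of its exonic bases also belonged to other annotated genes.

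Mitochondria carry their own ribosome, the mitoribosome, which translates the few proteins encoded in mitochondrial DNA, all of them subunits of the respiratory chain and ATP synthase. Its RNAs come from mitochondrial DNA, whereas every one of its proteins is encoded in the nucleus, made on cytosolic ribosomes and imported. Heart muscle is rich in mitochondria, and in people variants of several of these genes, MRPL3 and MRPL44 among them, are known causes of cardiomyopathy.

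Poly-A RNA from mouse heart tissue was sequenced in 15 libraries from 5 groups, each with 3 independent biological replicates, called hearts below. An equal amount of the adeno-associated virus AAV9, with a cardiac troponin T (cTnT) promoter driving its transgene, was injected under the skin of each pup on day 1 after birth, and tissue was taken 12 to 14 days later. The control group, ff_GFP, consisted of Nat10 flox/flox mice whose virus encoded green fluorescent protein (GFP). The other 4 groups were conditional Nat10 knockouts (Nat10-CKO) that received GFP (CKO_GFP), NAT10 (CKO_NAT10), NAT10 with the substitution G641E (CKO_G641E) or NAT10 with the substitution K209A (CKO_K209A). All 5 groups therefore carried AAV9 and a cTnT-driven transgene, which restricts transgene expression mainly to heart muscle cells. NAT10 is an enzyme that acetylates cytidines of RNA. By its title the study asked how RNA binding and the acetyltransferase activity each matter for the heart, and the labels state neither which substitution affects which activity nor which Cre driver produced the knockout.

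The libraries held between 13218352 and 15912700 reads in genes, of which 0.25% to 0.354% fell in the members. A member had 491 reads per library at the median, and between 143.6 and 2189 on average for the lowest and highest tested member. Nat10 itself, which a level over the whole gene checks only in part, since transcripts that lack deleted exons still count, was at 3.87 to 4.28 FPKM (fragments per kilobase of gene, scaled to library depth) in ff_GFP and at 3.43 to 3.53 FPKM in CKO_GFP. It was not called different there (log2 fold change -0.21 ± 0.11 SE, limma adjusted p = 0.165). It was at 2.05 to 2.92 FPKM in CKO_NAT10, 2.20 to 2.58 in CKO_G641E and 3.24 to 3.82 in CKO_K209A, so the Nat10 level in the table did not rise with the NAT10 transgenes, whose species the labels do not give. The level therefore checks neither the deletion nor the transgenes, and groups are named by their labels. All 7 heart muscle markers were detected in every group, with a summed level of 20540 to 22100 FPKM for ff_GFP, 8015 to 12300 for CKO_GFP, 15440 to 18820 for CKO_NAT10, 17240 to 19680 for CKO_G641E and 6781 to 9156 for CKO_K209A. A set of 3 libraries, CKO_GFP replicate 1, CKO_NAT10 replicate 2 and CKO_G641E replicate 2, stood apart on the second principal component, which held 9.95% of the variance.

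The promoters of 6 members are shown because they belong to the 3 members that fell most and the 3 that rose most in the knockout. The windows run from 250 bases before to 50 bases after the RefSeq start, on build GRCm38.p6. Capitals mark 2 motifs, the ETS motif CCGGAAG, bound by GABPA (NRF2), and the NRF1 motif, GCGC and TGCGC with 1 base of any kind between them. Both strands were searched, so an ETS match on the other strand reads CTTCCGG. NRF1 and GABPA are known as activators of nuclear genes for mitochondrial proteins.
Mrpl34 (chr8:71464676-71464975, plus strand): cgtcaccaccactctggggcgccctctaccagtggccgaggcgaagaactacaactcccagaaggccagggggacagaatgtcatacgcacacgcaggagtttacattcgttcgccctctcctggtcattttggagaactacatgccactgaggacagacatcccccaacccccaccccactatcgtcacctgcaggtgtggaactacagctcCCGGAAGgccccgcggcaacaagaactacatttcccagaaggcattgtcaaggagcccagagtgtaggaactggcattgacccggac
Mrpl14 (chr17:45686099-45686398, plus strand): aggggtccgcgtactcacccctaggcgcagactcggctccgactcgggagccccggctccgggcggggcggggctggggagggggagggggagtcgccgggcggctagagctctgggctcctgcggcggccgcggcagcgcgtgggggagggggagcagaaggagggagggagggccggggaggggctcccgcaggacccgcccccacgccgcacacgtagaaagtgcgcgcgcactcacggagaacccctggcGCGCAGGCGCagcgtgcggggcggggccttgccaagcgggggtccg
Mrpl18 (chr17:12916042-12916341, minus strand): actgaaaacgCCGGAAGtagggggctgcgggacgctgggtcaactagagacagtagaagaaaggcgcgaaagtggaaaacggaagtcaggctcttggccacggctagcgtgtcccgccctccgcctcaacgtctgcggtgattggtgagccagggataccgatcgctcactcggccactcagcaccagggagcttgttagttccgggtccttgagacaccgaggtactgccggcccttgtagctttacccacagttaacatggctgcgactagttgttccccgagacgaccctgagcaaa
Mrpl33 (chr5:31613701-31614000, plus strand): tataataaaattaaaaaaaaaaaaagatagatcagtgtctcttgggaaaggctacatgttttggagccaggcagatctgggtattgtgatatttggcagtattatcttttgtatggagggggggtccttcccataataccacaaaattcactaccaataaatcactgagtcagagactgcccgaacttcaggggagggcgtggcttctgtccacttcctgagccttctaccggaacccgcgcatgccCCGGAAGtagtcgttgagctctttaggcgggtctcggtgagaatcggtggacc
Mrpl52 (chr14:54426659-54426958, plus strand): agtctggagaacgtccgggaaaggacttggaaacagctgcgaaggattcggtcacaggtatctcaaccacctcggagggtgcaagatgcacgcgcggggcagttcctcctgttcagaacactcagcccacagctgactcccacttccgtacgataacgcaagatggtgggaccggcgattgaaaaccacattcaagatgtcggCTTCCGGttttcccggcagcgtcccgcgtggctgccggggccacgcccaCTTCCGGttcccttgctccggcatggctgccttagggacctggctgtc
Mrps18b (chr17:35916391-35916690, minus strand): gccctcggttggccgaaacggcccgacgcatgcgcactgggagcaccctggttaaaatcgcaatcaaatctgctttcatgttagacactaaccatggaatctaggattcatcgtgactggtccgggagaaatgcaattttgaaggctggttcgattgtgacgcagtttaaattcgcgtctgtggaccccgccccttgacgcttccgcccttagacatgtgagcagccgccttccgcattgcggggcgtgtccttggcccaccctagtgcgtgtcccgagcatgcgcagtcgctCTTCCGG
The ETS motif occurred once in Mrpl34, Mrpl18, Mrpl33 and Mrps18b and in 2 places in Mrpl52, and Mrpl14 held 1 NRF1 motif. For Mrpl33 the window follows the RefSeq start, which lies downstream of the first base of the gene model in the table (chr5:31596935-31664384). The RefSeq starts of Mrpl18 (model chr17:12911349-12916345) and Mrpl14 (model chr17:45686322-45698495) also lie downstream of the first base of their models. The windows of Mrpl33 and Mrpl18, with their ETS motifs, lie wholly inside these models.

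Across the family, 68 tested members matched the RefSeq table with 74 windows. The ETS motif was in 33.8% of member windows, against 16.8% of the 12498 windows of tested protein-coding genes and 8.86% of all 32851 windows. It was in 11 of 42 windows of members that fell in the knockout, in 6 of 7 windows of members that rose and in 8 of 25 windows of members not called. Within the 100 bases before the start these counts were 8, 2 and 4. The NRF1 motif was in 17.6% of member windows, against 9.55% in tested protein-coding genes and 4.6% in all windows. The YY1 motif AAGATGGC was in 16.2% of member windows, against 4.24% and 2.75%, and 1 of its 12 member windows held it in the 100 bases before the start. The E-box CACGTG (9.46% against 9.82% and 7.15%) and the SP1 motif GGGCGG (52.7% against 62.1% and 35.7%) were about as frequent in members as in tested genes, or less so. The ATF4 and CHOP composite motif TGATGNAA was in 0 of 74 member windows, against 2.22% and 3.97%. Median GC content was 58.5% in member windows and 60.7% in those of tested protein-coding genes. These shares describe letters and were not tested.

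By level, the members spanned more than a decade of FPKM, a unit divided by the gene length in the table. The order by level therefore depends on that annotated length as well as on the reads. The median of the members' mean levels was 14.7 FPKM. Highest were Mrps23 (73.8 FPKM on average over the 15 libraries), Mrpl34 (72.7), Mrpl12 (55.5) and Mrpl2 (51.7). Lowest among the tested members were Mrps25 (2.91), Mrps10 (3.24), Mrps30 (3.81) and Mrpl32 (3.89). Their lengths were 6576, 8079, 6666 and 4982 bases, against 1560, 607, 1532 and 1170 for the highest members in the order named. Of the exonic bases of Mrps25, 69.8% are shared with Nr2c2 on the opposite strand. Mrpl34 stood second over all libraries, but its level ran from 21.9 FPKM in a CKO_K209A heart to 104 FPKM in an ff_GFP heart, so its place in the order depended on the group. The neighbours Mrps23 and Mrpl34 overlapped over the libraries, as did Mrpl12 and Mrpl2, and at the low end Mrps30 and Mrpl32.

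**Figure D1:**
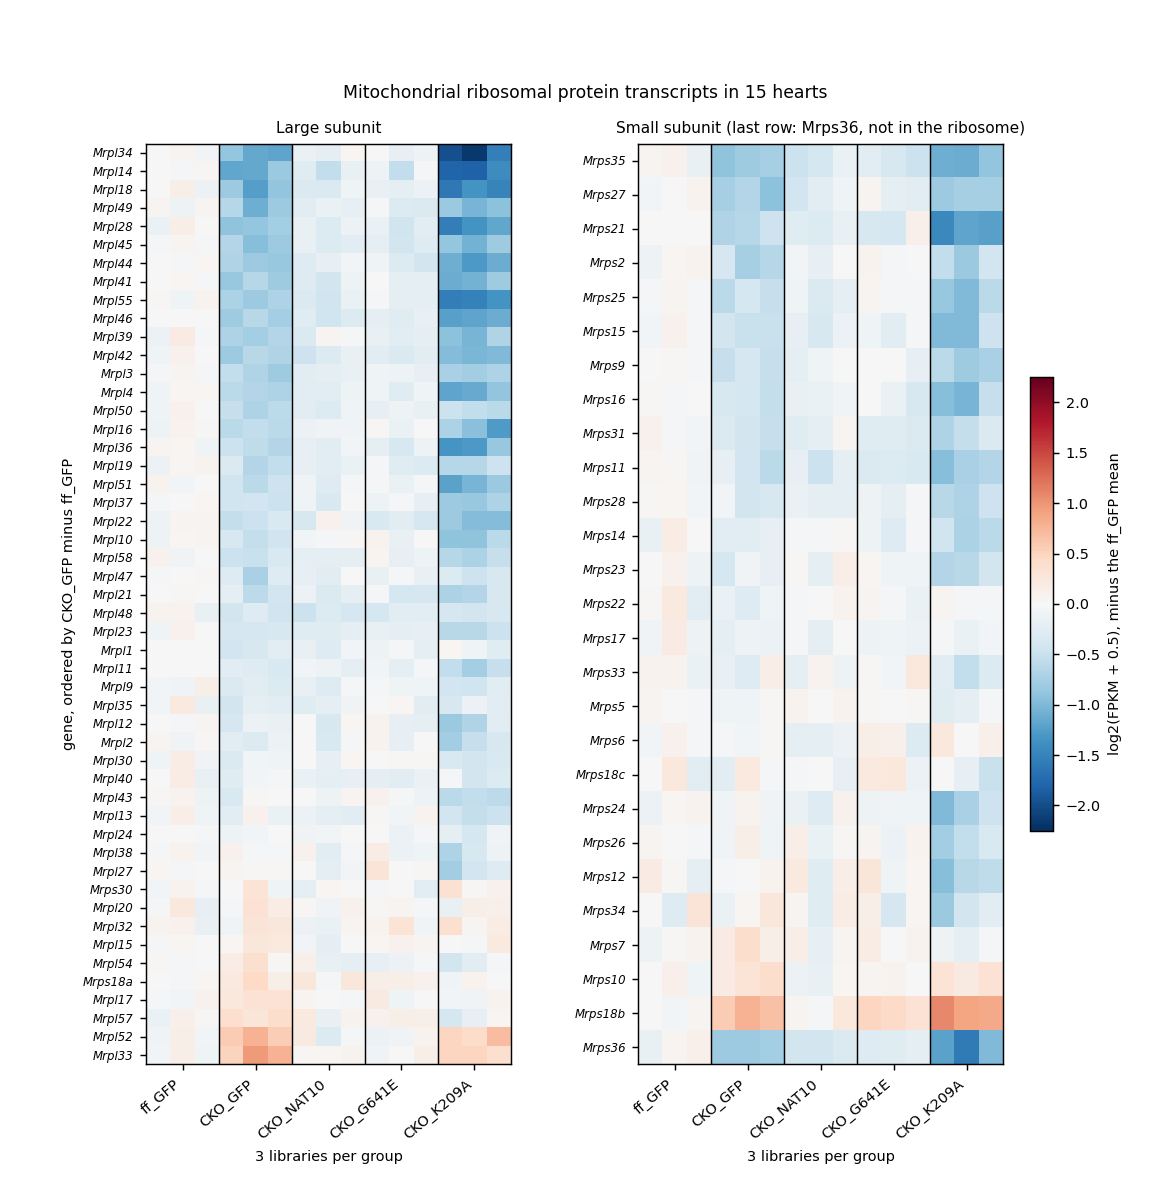
Each row is a tested member and each column a library; colour is log2(FPKM + 0.5) minus the ff_GFP mean of that gene, blue for lower and red for higher, with 3 columns per group. Most rows are blue in the CKO_GFP and CKO_K209A columns and pale in CKO_NAT10 and CKO_G641E, with Mrpl33, Mrpl52 and Mrps18b red in the first 2 of these groups.

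The conditional knockout was compared with its control first, CKO_GFP minus ff_GFP. Of the 77 tested members 42 fell and 7 rose, and 28 were not called (limma on log2(FPKM + 0.5), Benjamini-Hochberg adjusted p under 0.05 over all tested genes). Among all tested genes 20.8% fell and 19.8% rose. The median log2 fold change of the members was -0.35, against 0.00 for all tested genes, with a median SE of 0.11 per member. The groups did not overlap in 57 members, 47 of them lower and 10 higher in CKO_GFP, whereas 46.5% of all tested genes did not overlap. Rescaled to the reads recovered per library, the median of all tested genes shifted by 0.12 and the calls of all tested genes went to 27.3% higher and 14.8% lower. Of the members 32 then fell and 10 rose, and their median minus that of all tested genes was -0.33. In bulk tissue, fewer cells of a type and less RNA per cell cannot be told apart. Heart muscle markers moved with this comparison, 6 of 7 lower, as did fibroblast markers, 4 of 6 higher (summed 415 to 481 FPKM in ff_GFP, 638 to 754 in CKO_GFP), and 3 of 6 macrophage markers, higher. Endothelial markers were lower in 4 of 6 (summed 325 to 338 FPKM in ff_GFP, 240 to 291 in CKO_GFP), and smooth muscle and pericyte markers in 3 of 5 (571 to 715 against 332 to 438). The part of these cell types in the result was not tested.

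Mrpl34 (ENSMUSG00000034880, chr8:71464959-71465747), the mitochondrial member of the bacterial L34 family, a small basic protein of the large subunit, fell most. Its level was 101, 104 and 96.8 FPKM in ff_GFP and 54.7, 45.1 and 44.0 FPKM in CKO_GFP. Every knockout heart lay far below every control heart, and the log2 fold change was -1.07 ± 0.14 SE (adjusted p = 4.64e-05). Mrpl14 (ENSMUSG00000023939, chr17:45686322-45698495), which lies on the face of the large subunit that meets the small one, was at 43.3, 42.6 and 43.8 FPKM in ff_GFP and at 19.0, 19.1 and 24.0 FPKM in CKO_GFP. These groups too were well separated (-1.05 ± 0.15 SE, adjusted p = 0.000108). Mrpl18 (ENSMUSG00000057388, chr17:12911349-12916345), the counterpart of bacterial L18, a protein that binds 5S ribosomal RNA in bacteria, was at 47.3, 51.7 and 43.4 FPKM against 26.7, 19.7 and 25.2 FPKM. It fell by 0.99 ± 0.11 SE on the log2 scale (adjusted p = 1.65e-05).

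Members linked to heart disease were among those that fell. Mrpl44, a mitochondria-specific protein with a ribonuclease III fold, fell from 31.1, 30.6 and 32.6 FPKM to 19.5, 17.6 and 17.2 FPKM (-0.78 ± 0.09, adjusted p = 1.89e-05). Mrpl3, a counterpart of bacterial L3 near the catalytic centre, fell from 15, 16 and 15 FPKM to 10.3, 9.42 and 8.54 FPKM (-0.68 ± 0.07, adjusted p = 8.61e-06). In both genes every knockout heart lay below every control heart. Mrps27, an RNA-binding pentatricopeptide repeat protein of the small subunit, fell by 0.78 (adjusted p = 6.53e-05), with 24.2% of its exonic bases shared with another gene. Mrpl49, Mrpl28, Mrps35 and Mrpl55 fell by 0.86, 0.85, 0.82 and 0.74. Mrpl58, a peptidyl-tRNA hydrolase that became part of the large subunit, fell by 0.44 (adjusted p = 0.00106).

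Members linked to disease or regulation were not all lower. Mrpl12, which in people is known to bind the mitochondrial RNA polymerase beside its place in the ribosome stalk, was at 61.2 to 65.5 FPKM in ff_GFP and at 48.2 to 57.4 FPKM in CKO_GFP. The groups did not overlap, yet the difference was not called (-0.23, adjusted p = 0.248). Mrps22, whose human counterpart is linked to cardiomyopathy in infants, was at 3.97 to 5.63 against 3.81 to 4.46 FPKM, with overlap (-0.18, adjusted p = 0.213). The member highest in FPKM, Mrps23, was not called either (-0.22, adjusted p = 0.124).

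The 7 members that rose in the knockout were led by 3 genes. Mrpl33 (ENSMUSG00000106918), a counterpart of bacterial L33, was at 4.10, 4.80 and 3.97 FPKM in ff_GFP and at 6.22, 8.83 and 7.72 FPKM in CKO_GFP (0.75 ± 0.11 SE, adjusted p = 0.000158). Its gene model in the table holds 7326 exonic bases and begins upstream of the RefSeq start. Where in this model the reads fell was not examined. Mrps18b (ENSMUSG00000024436, chr17:35910379-35916389), one of 3 mammalian relatives of bacterial S18, was at 7.11, 6.83 and 7.45 against 10.9, 12.7 and 11.6 FPKM (0.68 ± 0.09, adjusted p = 7.65e-05). Mrpl52 (ENSMUSG00000010406, chr14:54426909-54429756), a mitochondria-specific protein of the large subunit, was at 19.9, 23.0 and 20.2 against 31.4, 36.5 and 31.2 FPKM (0.64 ± 0.12, adjusted p = 0.00113). In all 3 genes the knockout hearts lay above every control heart. The other 4, Mrpl57 (0.35), Mrps10 (0.30), Mrpl17 (0.30) and Mrps18a (0.27), rose less. Without ff_GFP replicate 1, ff_GFP replicate 3 or CKO_GFP replicate 3 the count of members that rose was 3, 4 or 4. An antisense gene shares 30.5% of the exonic bases of Mrps18b, and whether reads were counted by strand was not given in the sources used here.

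The 3 relatives of bacterial S18 differed in these hearts. They occupy different places: Mrps18c and Mrps18b sit in the small subunit and Mrps18a in the large one. Mrps18b and Mrps18a were called higher in CKO_GFP, as above, whereas Mrps18c was at 7.93 to 11.2 FPKM in ff_GFP and 7.78 to 11 FPKM in CKO_GFP, with full overlap (-0.03, adjusted p = 0.919). The differences between these paralogues were not tested.

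**Figure D2:**
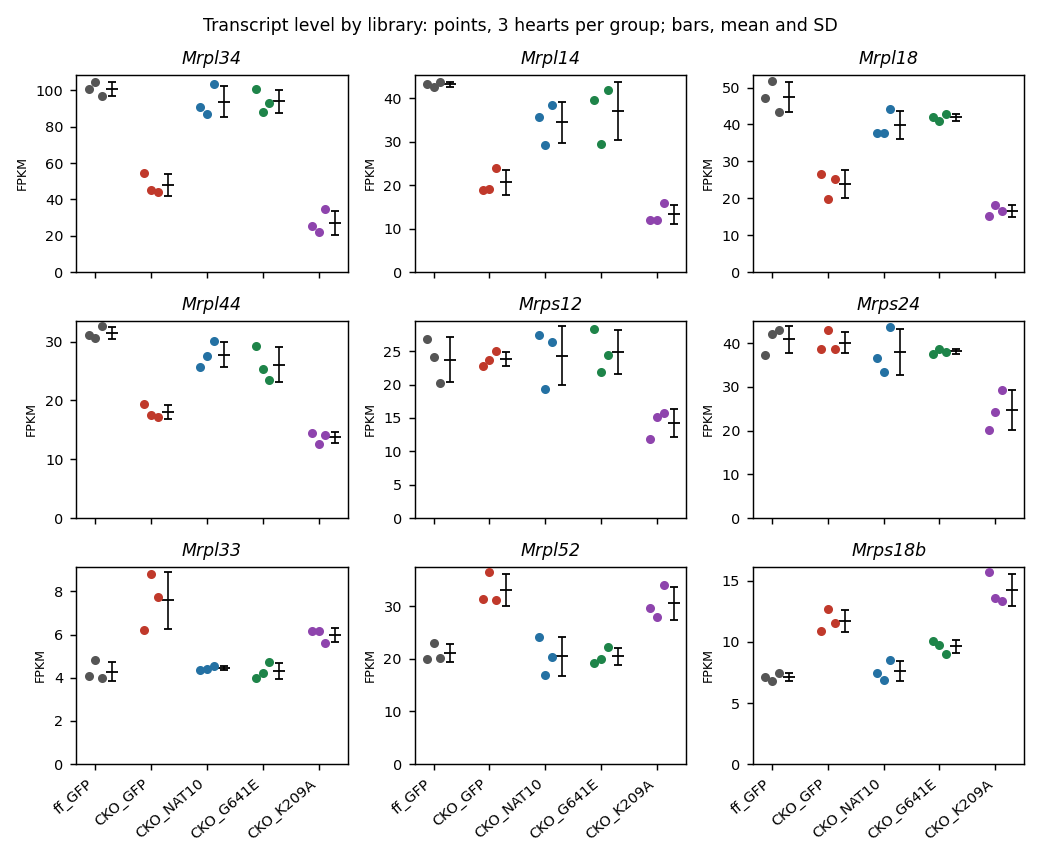
FPKM in each library for 9 members, by group; points are 3 hearts per group and bars the mean and SD, with each vertical axis starting at 0. Mrpl34, Mrpl14, Mrpl18 and Mrpl44 are low in CKO_GFP and lowest in CKO_K209A, Mrps12 and Mrps24 are low in CKO_K209A, and Mrpl33, Mrpl52 and Mrps18b are highest in CKO_GFP or CKO_K209A.

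Members were grouped by place in the ribosome, beside the 20.8% of all tested genes that fell in CKO_GFP and the 19.8% that rose. Of 50 tested large-subunit members 30 fell and 5 rose, with a median log2 fold change of -0.39. Of 26 small-subunit members 11 fell and 2 rose (median -0.20). Here Mrps30 and Mrps18a, despite their names, count with the large subunit, where structures of the mitoribosome place them. Members with a bacterial counterpart and mitochondria-specific members gave 25 lower of 46 and 16 lower of 30. The last member, Mrps36, is now known as a subunit of the alpha-ketoglutarate dehydrogenase complex of the citric acid cycle and not of the ribosome. It was at 33.7, 39.5 and 41.1 FPKM in ff_GFP and at 21.3, 21.3 and 22.0 FPKM in CKO_GFP, with no overlap (-0.80 ± 0.12, adjusted p = 0.000151).

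The summed level of large-subunit members was 2.5 to 2.55 times that of the small-subunit members in ff_GFP libraries and 2.14 to 2.22 times in those of CKO_GFP. It was 2.40 to 2.48 times for CKO_NAT10, 2.39 to 2.48 for CKO_G641E and 2.18 to 2.19 for CKO_K209A. The ff_GFP and CKO_GFP libraries did not overlap, and the CKO_K209A libraries lay within the CKO_GFP range. Without Mrpl34, the ratio was 2.30 to 2.35 in ff_GFP, 2.04 to 2.08 in CKO_GFP and 2.10 to 2.11 in CKO_K209A. The order of these 3 groups' lowest and highest libraries then changed, CKO_K209A lying above CKO_GFP.

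The members' total was 1787 ± 42.2 FPKM (SD, n = 3) for ff_GFP, 1366 ± 21.0 for CKO_GFP, 1613 ± 107 for CKO_NAT10, 1653 ± 80.2 for CKO_G641E and 1074 ± 84.6 for CKO_K209A. Scaled instead to the reads recovered per library, these means were 1650, 1396, 1624, 1630 and 1190 FPKM. Under either scaling CKO_K209A was lowest, followed by CKO_GFP, and CKO_NAT10 and CKO_G641E differed by less than their spread.

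Other gene classes of ribosomes and the respiratory chain were read in the same hearts, without a test of their difference from the members. The cytosolic ribosomal protein class was taken by symbol, Rpl or Rps followed by a number, with Rpsa and the Rplp genes. Most of its products form the ribosome outside mitochondria. The rule set no end to the symbol, so the class can also hold genes merely named after a ribosomal protein, such as kinases. Among all tested genes 19.8% rose and 20.8% fell in CKO_GFP. Of the 97 tested genes of this class 81 rose and 4 fell, with a median log2 fold change of 0.80. The members' total was 21.8% to 22.6% of the total of these genes in ff_GFP and 8.24% to 10.6% in CKO_GFP. Of 82 nuclear genes for respiratory chain subunits, 69 fell and 1 rose (median -0.64). Relative to these, the members' total went from 8.14% to 8.25% in ff_GFP up to 9.82% to 10.3% in CKO_GFP. Of 13 mitochondrially encoded mRNAs, the templates of the mitoribosome, 0 were called either way (median -0.43).

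Other gene lists of mitochondrial translation were read beside the 20.8% of all tested genes that fell. Of 15 translation factors 11 fell and 0 rose (median -0.67), among them Tufm, the mitochondrial elongation factor Tu (-1.10, adjusted p = 2.16e-06), and Gfm1, elongation factor G1 (-0.72, adjusted p = 1.09e-06). Of 24 factors for ribosome assembly or rRNA modification 12 fell and 1 rose (median -0.31). Mrm1, an rRNA methyltransferase, fell by 1.15 (adjusted p = 6.06e-05), and Mpv17l2, an assembly factor, rose by 0.76 (adjusted p = 0.00149), the 1 riser of the list. Of 18 genes for mitochondrial transcription and mRNA handling 8 fell and 1 rose. Tfam, which packages mitochondrial DNA and activates its transcription, fell by 0.65 (adjusted p = 0.000191). Of 5 further subunits not named Mrp, 2 fell, Ptcd3 (-0.83, adjusted p = 2.05e-05) and Dap3 (-0.30, adjusted p = 0.0182).

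**Figure D3:**
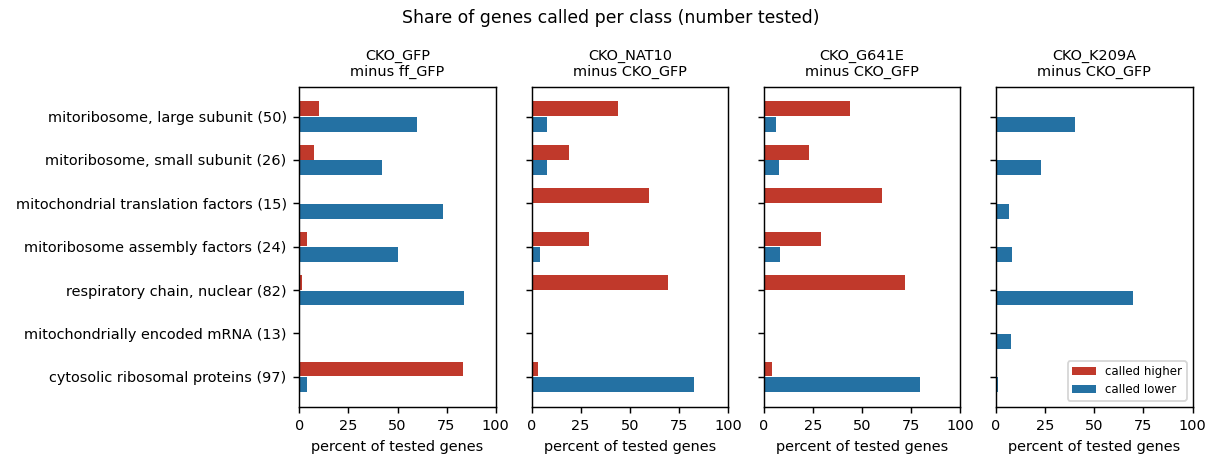
Percent of tested genes called higher (red) or lower (blue) per gene class in 4 comparisons, with the number tested in brackets. In CKO_GFP minus ff_GFP 60% of large-subunit and 42.3% of small-subunit members fell, against 20.8% of all tested genes. Of nuclear respiratory chain genes 84.1% fell, and of the cytosolic ribosomal protein class, taken by symbol, 4.12%.

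Transcripts from opposite strands that start close together give a view of single loci. An opposite-strand protein-coding gene started within 1000 bases of 33 members, and in 30 pairs both genes were tested. In 15 of these pairs the member fell in CKO_GFP. The neighbour fell in 7 of them, rose in 2 and was not called in 6, while 20.8% of all tested genes fell and 19.8% rose. Among the 7 were Mrpl36 with Ndufs6 (-0.57 and -0.47), Mrps27 with Ptcd2 (-0.78 and -0.58) and Mrpl47 with Ndufb5 (-0.44 and -0.64). Mrpl46 and Mrps11 are neighbours of each other and count in both roles. Mrpl49 fell by 0.86 while Fau, a cytosolic ribosomal protein gene that starts 59 bases away, was at 152, 141 and 160 FPKM in ff_GFP and at 232, 310 and 278 FPKM in CKO_GFP (0.85, adjusted p = 9.7e-05). Mrpl18 fell while Tcp1, a subunit of the cytosolic chaperonin whose transcript overlaps it at the start, rose by 0.43 (adjusted p = 0.00204). Conversely Mrps12 was not called (0.01) while Sars2, the mitochondrial seryl-tRNA synthetase that starts 172 bases away, fell by 0.80 (adjusted p = 0.00127). These last 3 pairs, in which the calls differed, were chosen after their values were seen.

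Addition of NAT10 was compared with GFP in knockout hearts, CKO_NAT10 minus CKO_GFP. Of the 77 members 28 were higher with NAT10, 6 were lower and 43 were not called, against 15.1% higher and 16.1% lower of all tested genes. The median log2 fold change was 0.17, and 46 members did not overlap between the groups, as did 38.9% of all tested genes. Mrpl34 was at 91.0, 86.9 and 103 FPKM in CKO_NAT10, which lay above all 3 CKO_GFP libraries (0.96 ± 0.14, adjusted p = 0.000227). Mrpl18 (37.6, 37.7 and 44.2 FPKM) and Mrpl14 (35.6, 29.2 and 38.6 FPKM) were higher by 0.74 and 0.72. The lower members were led by Mrpl33 at 4.35, 4.41 and 4.53 FPKM (-0.70, adjusted p = 0.000502), Mrpl52 (-0.69) and Mrps18b (-0.59), followed by Mrps10, Mrpl17 and Mrpl15. This comparison and the previous one share the CKO_GFP libraries, so a member that was low in these 3 hearts appears in both. Of heart muscle markers 5 of 7 were higher with NAT10, of endothelial markers 5 of 6 and of smooth muscle and pericyte markers 2 of 5, while 4 of 6 fibroblast markers and 1 of 6 macrophage markers were lower. Their part was not tested.

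G641E was compared with GFP in the same way, against the same CKO_GFP libraries. Of the 77 members 29 were higher in CKO_G641E, 5 were lower and 43 were not called, against 15.4% higher and 15.9% lower of all tested genes, and the median log2 fold change was 0.18. Between these groups 45 members did not overlap, against 39.9% of all tested genes. Mrpl34 was at 101, 88.2 and 93.1 FPKM, above all CKO_GFP hearts (0.97 ± 0.14, adjusted p = 0.000204). Mrpl14, at 39.7, 29.4 and 42.1 FPKM, and Mrpl18, at 42.0, 41.0 and 43.0 FPKM, were higher by 0.82 and 0.81. Mrps27 and Mrpl41, a large-subunit protein, were higher by 0.64 and 0.63. The lower members were Mrpl33 (-0.74), Mrpl52 (-0.68), Mrpl17 (-0.27), Mrps18b (-0.27, adjusted p = 0.045) and Mrps10 (-0.26, adjusted p = 0.045). Leaving out any 1 library of these 2 groups other than CKO_GFP replicate 1 reduced the 5 lower members to 2 or 3. Heart muscle markers were higher in 5 of 7 and endothelial markers in 4 of 6, whereas fibroblast markers were lower in 4 of 6. Of macrophage markers 1 of 6 was lower, and smooth muscle and pericyte markers were split, with 1 of 5 higher and 1 lower. The part of these markers was not tested.

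G641E and NAT10 hearts were compared directly, without the CKO_GFP libraries in the difference. None of the 77 members was called by limma in CKO_G641E minus CKO_NAT10, where 0.0326% of all tested genes were higher and 0.0196% lower; 2 members were higher and 0 lower at an unadjusted p under 0.05. Limma voom on recovered reads also called 0 members. The groups did not overlap in 9 members, against 15.4% of all tested genes. Mrps18b came nearest in size, at 7.48, 6.88 and 8.54 FPKM in CKO_NAT10 and 10.1, 9.79 and 9.04 FPKM in CKO_G641E. Its groups did not overlap, with a log2 difference of 0.32 ± 0.09 SE and an adjusted p of 0.411. A p that misses the threshold does not show that both proteins act alike.

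Both groups were also set against ff_GFP. In CKO_NAT10 minus ff_GFP 0 members were higher and 2 lower, against 0.79% and 1.68% of all tested genes. The 2 were Mrpl46, at 19.8, 19.7 and 19.9 FPKM in ff_GFP and 16.3, 14.4 and 15.8 FPKM in CKO_NAT10 (-0.35, adjusted p = 0.0258), and Mrpl48 (-0.39, adjusted p = 0.0396). Without 1 library these calls numbered 0 or 1. In CKO_G641E minus ff_GFP 1 member, Mrps18b, was higher (0.41, adjusted p = 0.0453), a call lost whenever an ff_GFP or CKO_G641E library was left out, and 0 were lower, against 0.627% and 1.16%. The groups did not overlap in 27 and 26 members, against 25.4% and 26.9% of all tested genes. The members' medians were -0.13 and -0.10, and 66 and 58 of the 77 had a negative difference. Rescaled to recovered reads the medians were -0.01 and -0.01, with all tested genes shifted by 0.10 and 0.08 and called at 1.32% higher and 0.542% lower, and 0.999% and 0.529%.

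**Figure D4:**
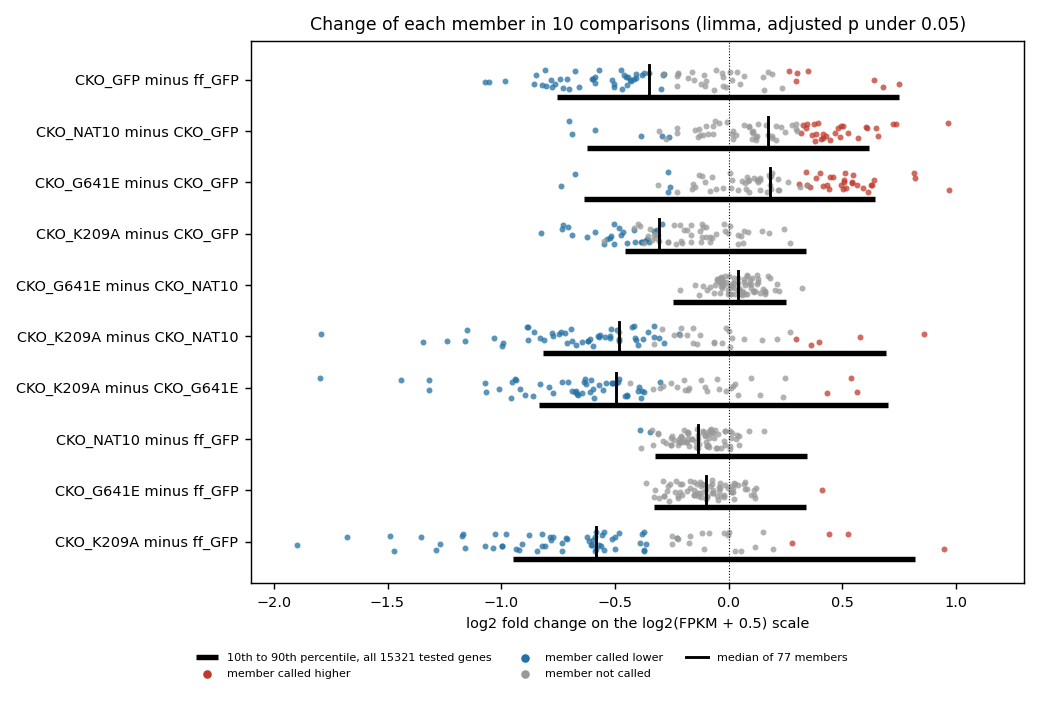
Log2 fold change on the log2(FPKM + 0.5) scale of each tested member (points: red called higher, blue called lower, grey not called) in 10 comparisons; vertical ticks are the median of 77 members and black bars span the 10th to the 90th percentile of all 15321 tested genes. The medians lie at -0.35 for CKO_GFP minus ff_GFP, at 0.17 and 0.18 for CKO_NAT10 and CKO_G641E minus CKO_GFP, and at -0.59 for CKO_K209A minus ff_GFP.

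K209A was compared with GFP in knockout hearts, again against the CKO_GFP libraries. In CKO_K209A minus CKO_GFP 27 of 77 members were lower, 0 were higher and 50 were not called, while 5.76% of all tested genes were lower and 2.17% higher. At an unadjusted p under 0.05, 2 members were higher, and limma voom called 2 higher. The median log2 fold change was -0.31, against -0.02 for all tested genes, and 44 members did not overlap, 42 of them lower, as did 23.2% of all tested genes. The count of lower members was sensitive to scaling and to single libraries. It was 16 after quantile normalization, 11 after rescaling to recovered reads (where 6.38% of all tested genes were higher and 3.13% lower), 10 with voom and 0 with these 2 groups fitted alone, where 9 genes in all were called. It was 15 without CKO_GFP replicate 3, 10 without CKO_K209A replicate 1 and 12 without CKO_K209A replicate 2.

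Mrpl34 was lower again, at 25.1, 21.9 and 34.5 FPKM in CKO_K209A, below all CKO_GFP hearts (-0.83 ± 0.14, adjusted p = 0.00446). The next lowest by log2 fold change were Mrps12, Mrpl55, Mrps24 and Mrps21. By place, 20 of 50 large-subunit and 6 of 26 small-subunit members were lower, against 5.76% of all tested genes. Mrps12, the counterpart of bacterial S12 at the decoding centre, was at 22.8, 23.6 and 25 FPKM in CKO_GFP and at 11.8, 15.2 and 15.7 FPKM in CKO_K209A (-0.73 ± 0.15, adjusted p = 0.0123, and 0.0627 without CKO_K209A replicate 1). In the other groups it was at 20.2 to 26.8 FPKM in ff_GFP, 19.3 to 27.4 in CKO_NAT10 and 21.9 to 28.4 in CKO_G641E, so the CKO_K209A hearts lay below all other hearts. Mrps24, at the mRNA entry of the small subunit, was at 37.3 to 43.1 FPKM in ff_GFP, 38.6 to 43.0 in CKO_GFP and 20.2, 24.3 and 29.4 in CKO_K209A, again below all others (-0.71 ± 0.12, adjusted p = 0.00525). Mrpl55 and Mrps21 were lower by 0.73 and 0.69, and Mrpl14 and Mrpl18 by 0.62 and 0.50. Mrps27 (0.00), Mrpl3 (-0.05) and Mrpl49 (-0.08) were not called. None of the 27 calls held with the 2 groups fitted alone. Those of Mrpl34, Mrps12, Mrps24, Mrpl55 and Mrps21 held under every other pseudocount, filter, scaling and model tried.

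Of heart muscle markers 2 of 7 were lower in CKO_K209A than in CKO_GFP, of macrophage markers 2 of 6 and of fibroblast markers 1 of 6. The part of these markers in the result was not tested. Gene length moved with this comparison as well. Across the 77 members, Spearman's rho between the log2 fold change and the log2 length in the table was 0.515, shorter genes being lower, and it was 0.184 across all 15321 tested genes. Genes share libraries and are not independent, so these are descriptions. Of 15 members under 1200 bases 9 were lower (median -0.47), and of 22 members of 4000 bases or more 4 were (median -0.12). Of all tested genes in these length classes 5.53% and 3.74% were lower, with medians of -0.08 and 0.04. In CKO_GFP minus ff_GFP rho was 0.208 in members and -0.0373 in all genes. With the length trend of each library removed, an alternative added after seeing the data, 19 members were lower and 1 higher in CKO_K209A. The share of all tested genes called in that setting is not given here.

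**Figure D5:**
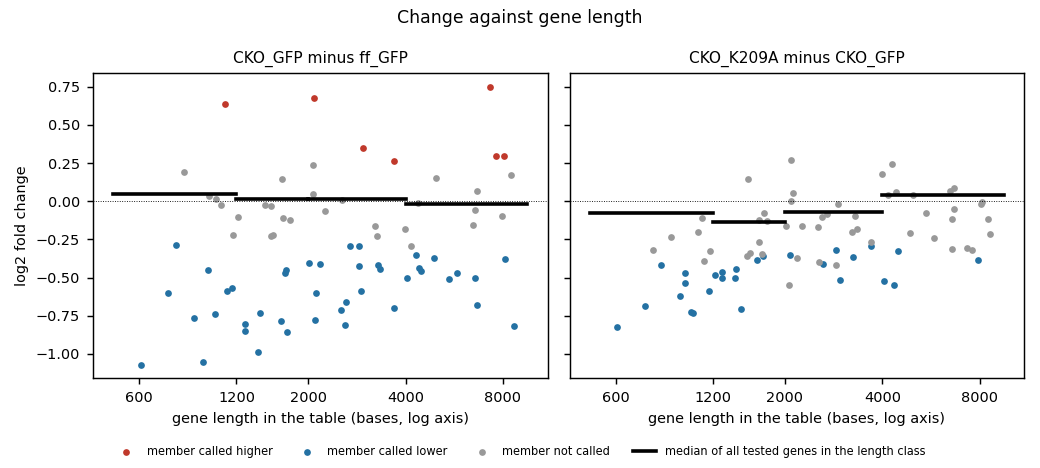
Log2 fold change of each tested member against its gene length in bases (log axis) in 2 comparisons; black segments are medians of all tested genes in 4 length classes. In CKO_K209A minus CKO_GFP the members' medians run from -0.47 in the shortest class to -0.12 in the longest, against -0.08 and 0.04 for all tested genes.

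K209A was then set against the other proteins and the control group. In CKO_K209A minus CKO_NAT10 50 of 77 members were lower and 5 higher, against 21.2% and 20.3% of all tested genes, with a median of -0.48. Against CKO_G641E 50 were lower and 3 higher, with 21.2% and 19.6% of all tested genes, and a median of -0.50. Against ff_GFP 56 were lower and 4 higher, with 24.5% and 23.2% of all tested genes, and a median of -0.59. These 3 comparisons share the CKO_K209A libraries. The groups did not overlap in 57, 60 and 60 members, against 54.4%, 55.4% and 59.5% of all tested genes. In each of these comparisons 6 of 7 heart muscle, 5 of 6 endothelial and 1 of 6 macrophage markers were lower. Fibroblast markers were split, with 3 of 6 higher in each comparison and 2, 2 and 1 of 6 lower. Of smooth muscle and pericyte markers 0, 1 and 1 of 5 were higher and 1, 2 and 2 of 5 lower. The part of these markers was not tested. Spearman's rho between the members' log2 fold change and log2 length was 0.446, 0.437 and 0.398, against 0.0853, 0.0744 and 0.0502 across all tested genes. Mrpl34 was lower by 1.79, 1.80 and 1.90 and Mrpl14 by 1.35, 1.44 and 1.68. Mrpl12, not called in CKO_GFP, was lower by 0.48 (adjusted p = 0.0202), 0.49 and 0.59. These Mrpl12 calls held in 7, 7 and 8 of 10 other settings. For Mrpl12, CKO_K209A replicate 3 (53.5 FPKM) lay within the CKO_NAT10 range of 48.9 to 64.6 FPKM. Changes of at least 2-fold were called in 6, 7 and 13 members. Rescaled to recovered reads, 38, 42 and 43 members were lower and 8, 6 and 9 higher, with all tested genes at 16% lower and 28% higher, 15.4% and 29.5%, and 16.3% and 36.7%. The median of all tested genes shifted by 0.11, 0.13 and 0.21, and the members' median minus it was -0.45, -0.48 and -0.54.

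The members higher in CKO_K209A were few. Mrps18b was at 15.7, 13.6 and 13.3 FPKM, above all other 12 hearts, and was higher than CKO_NAT10 by 0.86 (adjusted p = 1.13e-05), than CKO_G641E by 0.54 and than ff_GFP by 0.95 (adjusted p = 2.59e-06). Mrpl52, at 29.6, 28.0 and 34.1 FPKM, was higher by 0.58, 0.57 and 0.52. Mrpl33, at 6.17, 6.19 and 5.62 FPKM, was higher by 0.40, 0.43 and 0.44. Mrps10 was higher than CKO_NAT10 and ff_GFP (0.36 and 0.28), and Mrps6 than CKO_NAT10 (0.29, adjusted p = 0.0435).

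Of the other gene classes, that of the respiratory chain held most of the calls in K209A hearts. In CKO_K209A minus CKO_GFP 57 of 82 nuclear respiratory chain genes were lower and 0 higher (median -0.39), against 5.76% lower and 2.17% higher of all tested genes. With these 2 groups fitted alone 9 genes in all were called, so most of the 57 calls were lost. Lower too were 1 of 97 genes of the cytosolic ribosomal protein class, 1 of 15 translation factors and 2 of 24 assembly factors. Of 18 genes for mitochondrial transcription and mRNA handling 3 were higher and 1 lower. Of the 13 mitochondrially encoded mRNAs 1 was lower here, and 12 were lower than in ff_GFP (median -0.84). The members' total was 7.59% to 7.84% of the total of the cytosolic ribosomal protein class in CKO_K209A. It was 16.6% to 19.0% in CKO_NAT10 and 18.07% to 19.96% in CKO_G641E.

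Of the tested members, 8 were called in none of the 10 comparisons: Mrpl20, Mrpl32, Mrpl35 and Mrpl40 of the large-subunit names and Mrps17, Mrps18c, Mrps22 and Mrps30 of the small-subunit names. Mrps30, for instance, was at 3.58 to 4.01 FPKM in ff_GFP, 3.46 to 4.78 in CKO_GFP and 3.85 to 4.86 in CKO_K209A, all overlapping. At the other end, 1 member was called in 8 comparisons and 15 in 7.

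Overlap with other genes limits some values. In all, 33 members share exonic bases with another annotated gene, 28 of them with a gene on the opposite strand, and in 10 members the share was over 20%. Pseudogenes named after members, 5 in number, held 778 reads over all libraries, against 682856 reads in the members.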

How the data were processed

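The authors deposited 1 table of FPKM values for 54532 genes in 15 heart libraries. Per the submitters' processing notes, HISAT2 2.0.5 was the aligner, GRCm38/mm10 the build and featureCounts 1.5.0-p3 the counter. The divisor of the deposited FPKM and any use of strand were not given in the sources used here. Low values were whole multiples of 1 read, and reads recovered from them came out whole (within 0.05) for 100% of values.

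FPKM was tested as log2(FPKM + 0.5) with limma 3.58.1 (R 4.3.3), all 5 groups in 1 fit, over the 15321 genes that reached 0.5 FPKM in 3 or more libraries. Calls had a Benjamini-Hochberg adjusted p under 0.05 over all tested genes. Fold changes on this scale understate those of low genes. Sums, ratios, motifs and figures used Python 3.11.15. Named members were the up to 6 that rose and 6 that fell most per comparison, the 4 highest and 4 lowest in level, those never called, and a fixed panel. Members and lists were chosen with earlier results of these data known. Simulated data for CKO_GFP minus ff_GFP over 15321 genes held 67, 67 and 66 genes changed 1.5-fold, 2-fold and 4-fold. Of these 37.3%, 74.6% and 95.5% were called, with 3 of 15121 unchanged genes. Far fewer genes changed there than were called in the hearts (19.8% higher and 20.8% lower). The Benjamini-Hochberg cutoff depends on that share, so the simulated shares do not measure detection in the real comparison. Alternatives covered pseudocount, filter, scaling, limma voom on recovered reads, 2 groups alone, a replicate block and each library left out.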

Additional observations from a re-analysis of the deposited data

How the results depend on the processing

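Counts of called members kept within 1.5 times their value under other pseudocounts, filters, scalings and models, with these exceptions, whose cause was not tested. In CKO_K209A minus CKO_GFP the 27 lower members were 16 after quantile normalization, 11 after rescaling to recovered reads, 10 with voom and 0 with 2 groups alone, and 10 to 33 with 1 library left out. The 0 higher members there became 1 (quantile), 2 (rescaled), 2 (voom) and 1 with the length trend removed. Rescaling and voom gave 8 and 8 higher members against CKO_NAT10 (from 5), 6 and 5 against CKO_G641E (from 3) and 9 and 9 against ff_GFP (from 4). With 2 groups alone 4 rather than 7 members rose in CKO_GFP minus ff_GFP (3 to 6 with 1 library left out), and 3 rather than 6 were lower in CKO_NAT10 minus CKO_GFP. The 5 lower members of CKO_G641E minus CKO_GFP were 2 without the filter, with 2 groups alone and with the replicate block, and 2 to 5 with 1 library left out. The 2 lower members of CKO_NAT10 minus ff_GFP were 1 without the filter and with the replicate block, 0 with rescaling, voom, 2 groups alone and the 3 libraries low on the second component left out, and 0 to 1 with 1 library left out. The 1 higher member of CKO_G641E minus ff_GFP was 0 without the filter, with the replicate block, without those 3 libraries and with any 1 library left out (0 to 0). Mrps18a in CKO_K209A minus ff_GFP turned from -0.00 to 0.25 with rescaling and 0.26 with voom. Summed member levels moved to 1650 FPKM in ff_GFP, 1396 in CKO_GFP and 1190 in CKO_K209A with rescaling. Leaving out those 3 libraries and removing the length trend were chosen after seeing the data. Same-numbered replicates did not pair across all groups: over 30 pairs the correlation of deviations ran from -0.15 to 0.364, with 3 over 0.1. Between CKO_NAT10 and CKO_G641E it was 0.0883, 0.364 and 0.115 for replicates 1, 2 and 3. The replicate 2 libraries of both groups are among those 3 low on the second component. The replicate block gave 24 lower members in CKO_K209A minus CKO_GFP. The deposited scaling cannot be told apart from a change in the median gene.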
